A study of Mus musculus with 26 samples.

Results

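Around *Nanog* on mouse chromosome 6 lie several genes that are active in early embryonic cells, and this account follows 9 of them across 3 pluripotent cell states. They are listed by name and position, from *Phc1* to *C3ar1*, in a rule that uses no measured value. Of these 9 genes, 7 have both a baited promoter fragment and an expression value, out of 19022 baited fragments and 15646 genes in all. *Gdf3* and *Apobec1* lie between *Rimklb* and *Dppa3* and their expression and promoter contacts were not analysed here.

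WT ESCs are embryonic stem cells of the line E14Tg2a, and *Nanog*-/- ESCs are the line RCNβH-B(t), which was derived from E14Tg2a, so both groups share a genetic origin. Both were grown on gelatin in serum with LIF, and hygromycin was present while the knockout line was expanded. EpiSCs, epiblast stem cells that stand for the post-implantation epiblast, came from another mouse strain and were grown on fibronectin in serum-free medium with Activin A and bFGF. For all samples the strain label reads C57BL/6, which differs from the strains of origin in the growth protocol. The knockout is 1 line, and the labels do not say which part of *Nanog* was deleted. Strain and medium differ together with the state between ESCs and EpiSCs and cannot be told apart from it.

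Expression was measured by RNA-seq in 3 WT ESC, 4 EpiSC and 3 *Nanog*-/- ESC samples, and the authors deposited 1 median RPKM per group, a level per gene length and library size. Promoter contacts were measured by promoter-capture Hi-C (PCHi-C), which joins DNA fragments that lie close together in the nucleus and enriches those with a gene promoter. The authors combined 2 biological replicates of each cell type into 1 list of contacts with their read pairs and CHiCAGO score, which weighs the reads against the background for that distance. With 1 value per group and 1 list per state, no value used here has a replicate error and no difference was tested. The authors' own fold changes and significance were not used. The lists hold 100492 contacts in WT ESCs against 87369 in EpiSCs and 74931 in *Nanog*-/- ESCs, and a contact that a list lacks scored under 5 there, which is not the same as 0 reads. A gene was called higher or lower where its log2(RPKM + 1) differed from that in WT ESCs by at least 1, after the median difference of genes with at least 1 RPKM in either group was taken off. All 8 naive markers measured were called lower in EpiSCs, with and without the median taken off. All 6 primed markers had higher RPKM there, summing to 310.1 in WT ESCs and 1200 in EpiSCs, of which 2 were called higher (*Fgf5* and *T*) and 4 without the median taken off. Collagens and other fibroblast markers summed to 43.9 RPKM in WT ESCs against 381.7 in EpiSCs and 52.0 in *Nanog*-/- ESCs, with 3 of 4 called higher in EpiSCs. Primitive endoderm markers summed to 4.36, 123.9 and 60.2 RPKM in the same order, with 4 of 5 called higher in each contrast. In EpiSCs *Foxa2* made up 90.5 RPKM of that sum and *Gata4* was called lower (-1.07, from 1.29 to 0.976 RPKM). Without the median taken off, *Gata4* was not called (-0.21). Over all genes, 9.75% were called higher and 14.7% lower in EpiSCs, and 1.46% were called higher in *Nanog*-/- ESCs. Whether these markers came from other cell types in the samples, and what part such cells had in the values below, was not tested.

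*Nanog* encodes a homeodomain transcription factor that holds ESCs in self-renewal and is known for uneven levels between cells of a culture. Its neighbours *Dppa3* (a maternal factor that protects DNA methylation in the zygote), *Gdf3* (a ligand of the TGF-β family) and *Phc1* (a subunit of a Polycomb repressive complex) are also active in pluripotent cells. The interval further holds *Slc2a3*, the glucose transporter GLUT3, *Foxj2*, a forkhead transcription factor, *C3ar1*, the receptor of the complement peptide C3a, *Rimklb*, a ligase that makes glutamate-containing dipeptides, and *Apobec1*, a cytidine deaminase that edits RNA. Super-enhancers (SEs) are long stretches of enhancer chromatin that are dense in transcription factors, and 4 of the study's 231 ESC SEs lie here.

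In GRCm38 the baited fragments lie on chromosome 6 in the order *Phc1* (122337340 to 122340824), *Rimklb* (122485794 to 122489783), *Dppa3* (122625525 to 122627457), *Nanog* (122707373 to 122709173), *Slc2a3* (122795757 to 122817381), *Foxj2* (122817382 to 122824491) and *C3ar1* (122847406 to 122858354). Each contains the annotated start of its gene. For *Slc2a3*, which spans 122727809 to 122802363, this is the outermost annotated start, and whether its RNA begins there was not examined. *Apobec1* spans 122577792 to 122603024 and *Gdf3* spans 122605403 to 122610087. An SE covers the start of *Phc1* (122337340 to 122343407), 1 is intergenic between *Dppa3* and *Nanog* and was assigned to *Dppa3* (122655756 to 122666158), 1 reaches from upstream of *Nanog* to the end of its bait (122684377 to 122709173) and 1 is in an intron of *Slc2a3* (122760696 to 122772061). The *Phc1* and *Nanog* baits are therefore SE fragments themselves.

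Promoter sequences are shown for *Nanog*, which had the most contacts in WT ESCs, for *Foxj2*, which was joined to it in every list, and for *C3ar1*, none of whose WT ESC contacts was kept. They are RefSeq windows of GRCm38.p6 with 250 bases before and 50 bases after the gene start, and 6 of the 9 genes matched, with *Gdf3*, *Dppa3* and *Slc2a3* not in the table. Capitals mark an OCT motif (TTTGCAT), a SOX motif (ACAATG) or a HindIII site (AAGCTT) on either strand.
Nanog, chr6:122707239-122707538, plus strand: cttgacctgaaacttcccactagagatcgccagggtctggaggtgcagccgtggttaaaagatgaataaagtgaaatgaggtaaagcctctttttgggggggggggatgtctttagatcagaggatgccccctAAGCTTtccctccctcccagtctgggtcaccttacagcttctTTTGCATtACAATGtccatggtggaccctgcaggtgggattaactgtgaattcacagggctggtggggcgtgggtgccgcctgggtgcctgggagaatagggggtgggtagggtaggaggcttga
Foxj2, chr6:122819934-122820233, plus strand: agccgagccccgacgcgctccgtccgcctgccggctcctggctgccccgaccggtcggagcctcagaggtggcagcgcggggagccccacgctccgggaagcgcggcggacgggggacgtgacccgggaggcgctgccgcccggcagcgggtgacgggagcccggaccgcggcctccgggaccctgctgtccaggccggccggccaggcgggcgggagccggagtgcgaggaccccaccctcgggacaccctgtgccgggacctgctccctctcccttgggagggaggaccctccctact
C3ar1, chr6:122856108-122856407, minus strand: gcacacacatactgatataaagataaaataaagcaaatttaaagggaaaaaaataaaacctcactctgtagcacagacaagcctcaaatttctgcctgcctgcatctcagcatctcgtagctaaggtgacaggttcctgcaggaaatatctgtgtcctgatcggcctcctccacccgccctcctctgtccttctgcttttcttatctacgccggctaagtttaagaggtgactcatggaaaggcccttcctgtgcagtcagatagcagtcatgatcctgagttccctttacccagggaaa

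The *Nanog* window holds an OCT motif and, 1 base further, a SOX motif (122707414 to 122707427), which begin 75 bases before the gene start. OCT4 and SOX2 are known to bind such adjoining motifs together. An OCT motif followed within 3 bases by a SOX motif on the same strand was found in 3 of 32851 promoter windows (0.00913%), and 2 of those 3 are overlapping windows of *Nanog*. Alone, the OCT letters occur in 4.63% and the SOX letters in 12.6% of all windows. The HindIII site, which 7.46% of windows hold, begins 117 bases before the gene start, so that the baited fragment takes in both motifs and the gene start while the bases further upstream belong to the next fragment. The *Foxj2* window has 37 CpGs, more than 94.4% of all windows, and holds none of the marked letters. *C3ar1* has 5 CpGs and *Nanog* 4, more than 38.0% and 31.4% of windows. *Rimklb* is at the CpG-rich end with 47, and *Phc1* and *Apobec1* have 9 each.

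The 7 genes covered a wide range of expression levels. *Slc2a3*, the glucose transporter, had 468.6 RPKM in WT ESCs against 638.5 in EpiSCs and 436.5 in *Nanog*-/- ESCs, above 99.0% to 99.3% of genes. *Phc1* had 291.6, 298.6 and 340.1 RPKM. Both were thus among the most highly expressed genes in each state, including the knockout. *Nanog* itself had 417.7 RPKM in WT ESCs against 360.6 in EpiSCs and 22.3 in *Nanog*-/- ESCs. The knockout level was lower as the label says, yet 74.3% of genes were below it. *Nanog* and *Dppa3* have processed copies elsewhere in the mouse genome, and how reads that match several places were counted is not given in the sources used here.

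*Dppa3*, which had 74.1 RPKM in WT ESCs, was listed at 0.0603 in EpiSCs and at 13.6 in *Nanog*-/- ESCs. Hence it was lower than in WT ESCs in both other states, and most of all in EpiSCs, where *Nanog* RNA was abundant. In *Nanog*-/- ESCs it was still above 66.2% of genes. *Rimklb* was at an intermediate level of 21.6, 40.2 and 18.3 RPKM. *Foxj2* had 3.72, 14.3 and 3.16 RPKM, and *C3ar1*, a gene of myeloid cells, had 0.187, 2.38 and 0.904. All 3 had their highest RPKM in EpiSCs, as *Slc2a3* did. In bulk samples, fewer cells that express a gene and less RNA per cell cannot be told apart.

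**Figure D1:**
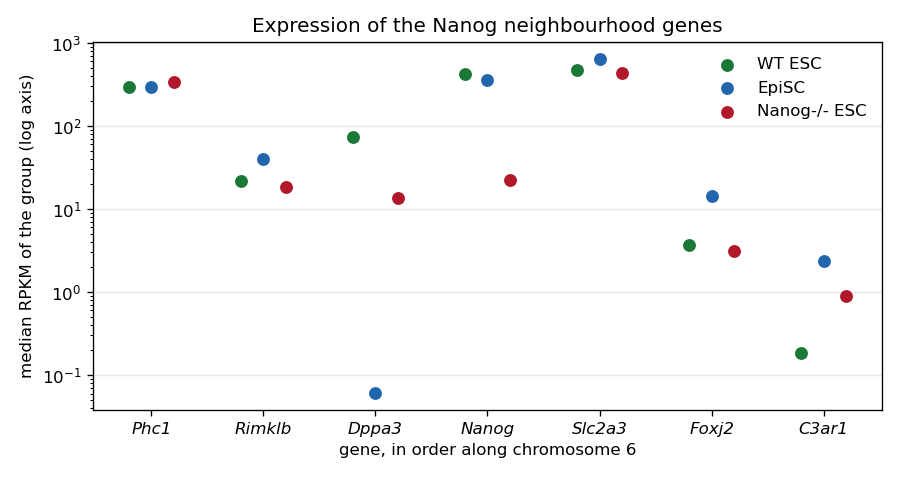
Median RPKM of each group (log axis) for the 7 genes with values, in their order along chromosome 6, with 1 point for each state and no error because each value is a group median. *Nanog* is low only in *Nanog*-/- ESCs (22.3 RPKM), *Dppa3* is lowest in EpiSCs (0.0603), and *Slc2a3* and *Phc1* stay between 291.6 and 638.5 RPKM.

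To ask which neighbours follow *Nanog*, differences of log2(RPKM + 1) from WT ESCs were compared by the rule given above. The median difference taken off was 0.86 for EpiSCs and 0.07 for *Nanog*-/- ESCs. The added 1 understates differences of genes with low levels. In *Nanog*-/- ESCs, 2 of the 7 genes were called lower, *Nanog* (log2 difference -4.24) and *Dppa3* (-2.44), where 1.62% of all genes were. *Nanog* is the targeted gene, so its own call was set by the design, and among its 6 neighbours with values the count was 1. None of the 7 was called higher, against 1.46% of all genes. In EpiSCs *Nanog* (-1.07) and *Dppa3* (-7.01) were again the 2 genes called lower, where 14.7% of all genes were, and none was called higher, against 9.75%. Among the 6 neighbours this is again 1, or 16.7%, which is near the share of all genes. Of all genes, 1.02% were called lower in both contrasts. The contrasts share the WT ESC samples. The EpiSC call of *Nanog* rests on the shift of all genes, since without it the log2 difference was -0.21. Without it, 30.1% of all genes were higher and 5.78% lower in EpiSCs.

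Of the 7 genes, *Dppa3* was the 1 other gene called in the same direction as *Nanog*, in each contrast. The genes on the far side of *Nanog* were not called in either contrast. *Slc2a3* had log2 differences of -0.42 in EpiSCs and -0.17 in *Nanog*-/- ESCs, *Foxj2* of 0.83 and -0.25, and *C3ar1* of 0.65 and 0.61. On the other side, *Phc1* had -0.83 and 0.15 and *Rimklb* 0.00 and -0.30. Without the shift, *Foxj2* (1.70) and *C3ar1* (1.51) passed the threshold as higher in EpiSCs. The EpiSC differences of *Slc2a3* (0.45) and *Phc1* (0.03) then changed sign but stayed under the threshold. The macrophage markers *Ptprc*, *Csf1r* and *Cd68* summed to 28.3 RPKM in WT ESCs against 33.9 in EpiSCs and 23.4 in *Nanog*-/- ESCs, and none of the 3 was called. *Cd68* made up 24.1 RPKM of the WT ESC sum, and without the shift *Csf1r* passed the threshold as higher in EpiSCs (1.01, from 4.05 to 9.19 RPKM). *Ptprc*, which defines blood cells, was at 0.167, 0.964 and 0.411 RPKM.

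Over the 3 levels, the pattern nearest to *Nanog* by Euclidean distance of log2(RPKM + 1) was that of *Fxyd6* (distance 1.81), with 243.1 RPKM in WT ESCs against 201.4 in EpiSCs and 60.4 in *Nanog*-/- ESCs, followed by *Cox6b2*, *Emb*, *H2afv* and *Ccnd1*. Unlike *Nanog*, these last 4 had higher RPKM in EpiSCs than in WT ESCs, as *Cox6b2* with 97.0 in WT ESCs against 406.1 in EpiSCs and 33.5 in *Nanog*-/- ESCs. The distance rests on 3 points and also counts the height of the levels. None of these 5 genes is in the interval. *Phc1* ranked 1620, *Slc2a3* 2307, *Rimklb* 3738, *Foxj2* 7424, *Dppa3* 7895 and *C3ar1* 10324. By this measure *Dppa3*, which was called with *Nanog*, stood far from it, and the gap was widest in EpiSCs.

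Among 8 measured genes in and beside the interval that are not of the 9, 1 was called lower in EpiSCs (*1700063H04Rik*, -1.12) and 1 higher in *Nanog*-/- ESCs (*Clec4d*, a lectin receptor of myeloid cells, 1.79). For this and the next counts, 14.7% of all genes were called lower in EpiSCs. In *Nanog*-/- ESCs 1.46% were called higher and 1.62% lower. Without the shift *1700063H04Rik* was not called in EpiSCs (-0.26). *Clec4d* had 0.632 RPKM in WT ESCs and was about as high in EpiSCs (4.93 RPKM) as in *Nanog*-/- ESCs (4.91 RPKM), and its EpiSC difference of 1.00 was just under the threshold and 1.86 without the shift. Of 6 pluripotency factors shared by ESCs and EpiSCs, 3 were called lower in EpiSCs (*Sox2*, *Dppa4* and *Utf1*), and in *Nanog*-/- ESCs 0 of 6 were called. The EpiSC call of *Utf1* rests on the shift, since its difference was -0.76 without it. *Pou5f1*, which encodes OCT4, had 1159, 1422 and 1129 RPKM. Of the 8 naive factors, *Klf4* was the 1 called lower in *Nanog*-/- ESCs (-1.59). Of the 6 primed genes, *Fgf5*, *Zic2* and *T* were called lower there, at log2 differences of -1.51, -2.50 and -1.10.

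Promoter contacts were spread unevenly over the 7 baited fragments. *Nanog* had 20 contacts in WT ESCs against 12 in EpiSCs and 11 in *Nanog*-/- ESCs. *Foxj2* had 14, 7 and 15, and *Phc1* 14, 13 and 7. Thus *Foxj2* had the fewest in EpiSCs and *Phc1* in *Nanog*-/- ESCs. *Slc2a3* had 5, 3 and 6 contacts, and *C3ar1* had 7, 1 and 0. *Rimklb* had 1, 1 and 0, and *Dppa3* 1, 0 and 0, so the promoter called with *Nanog* in expression was among those with the fewest contacts. At a score of at least 7, *Nanog* had 12, 5 and 6 contacts, *Foxj2* 5, 1 and 7, and *C3ar1* 3, 1 and 0, in the same order of lists as above. *Phc1* then had 5, 8 and 5, so its highest number passed from WT ESCs to EpiSCs. Counted once each at a score of at least 5, these were 57 different contacts in WT ESCs against 34 in EpiSCs and 38 in *Nanog*-/- ESCs. Of the 82 in any list, 14 were in all 3, where over all baits 25010 of 174253 were. The number of contacts did not order the genes by RPKM in WT ESCs. *Slc2a3*, at 468.6 RPKM, had 5 contacts and *Foxj2*, at 3.72 RPKM, had 14. The *Slc2a3* bait may not be where most of its RNA begins, which was not examined.

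**Figure D2:**
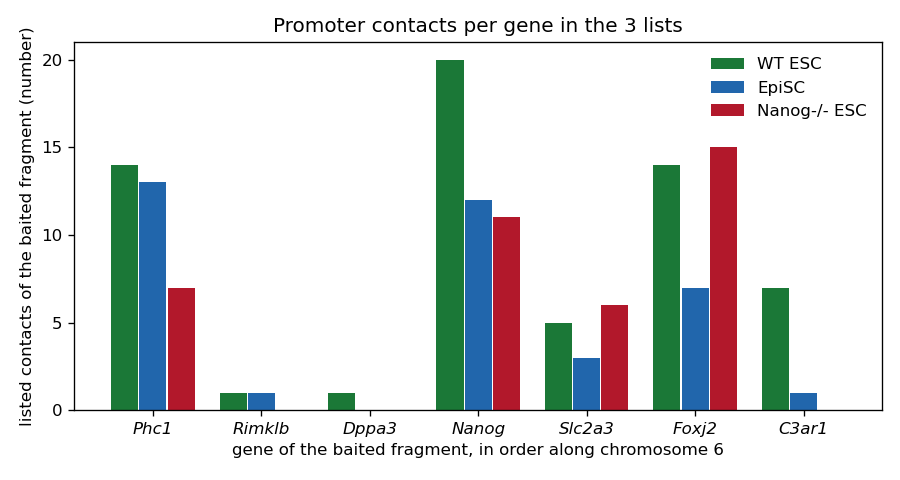
Number of listed contacts (CHiCAGO score of at least 5) of each baited promoter fragment, with 1 bar for each of the 3 lists and genes in their order along chromosome 6. *Nanog* has the most contacts in WT ESCs (20), *Foxj2* in *Nanog*-/- ESCs (15), and *C3ar1* has 7, 1 and 0.

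The totals of all lists also differ, so each count was set beside other baits that had the same number of contacts in WT ESCs. Of 753 baits with 7 WT ESC contacts, as *C3ar1* has, 12.2% had at most 1 in EpiSCs and 6.11% had 0 in *Nanog*-/- ESCs. For *Nanog*, 45.1% of 144 baits with 20 contacts had at most 12 in EpiSCs and 37.5% at most 11 in *Nanog*-/- ESCs. *C3ar1* thus had fewer contacts than most baits of its kind, while the decrease at *Nanog* was near the middle. Of 260 baits with 14 contacts, 31.9% had at most the 7 of *Foxj2* in EpiSCs and 86.5% at most its 15 in *Nanog*-/- ESCs. For *Phc1*, 79.2% of these had at most 13 in EpiSCs and 26.2% at most 7 in *Nanog*-/- ESCs. Neither bait stood at the edge of its kind. Of 1108 baits with the 5 contacts of *Slc2a3*, 47.5% had at most 3 in EpiSCs and 85.6% at most 6 in *Nanog*-/- ESCs. Of 3248 baits with a single contact, 38.6% had 0 in EpiSCs, as *Dppa3*, 67.6% had at most 1, as *Rimklb*, and 54.8% had 0 in *Nanog*-/- ESCs, as *Dppa3* and *Rimklb*.

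Of the 57 WT ESC contacts, 20 were also in the EpiSC list, which is 35.1% (Clopper-Pearson 95% interval 22.9% to 48.9%), against 39.6% of all WT ESC contacts and 40.4% of those within 500 kb. In *Nanog*-/- ESCs 25 were kept, or 43.9% (30.7% to 57.6%), against 41.8% of all and 43.4% within 500 kb. The intervals cover counting error only, and both include the share over all contacts. Neighbouring contacts share baits and are not independent. By bait, *Nanog* kept 9 of 20 contacts in EpiSCs and 8 in *Nanog*-/- ESCs, *Phc1* kept 7 and 6 of 14, and *Slc2a3* 2 and 3 of 5. *Foxj2* kept 3 of 14 in EpiSCs (21.4%, 4.66% to 50.8%) and 9 of 14 in *Nanog*-/- ESCs (64.3%, 35.1% to 87.2%). *C3ar1* kept 0 of 7 in each list, for which the interval reaches 41.0%. Contacts that were kept had higher WT ESC scores, with a median of 7.71 against 5.74 for those not in the EpiSC list and 7.16 against 5.70 for the *Nanog*-/- ESC list, as was so over all contacts (7.70 against 6.08 and 7.64 against 6.06). Many of the contacts that a list lacked were thus close to the threshold of 5 to begin with.

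**Figure D3:**
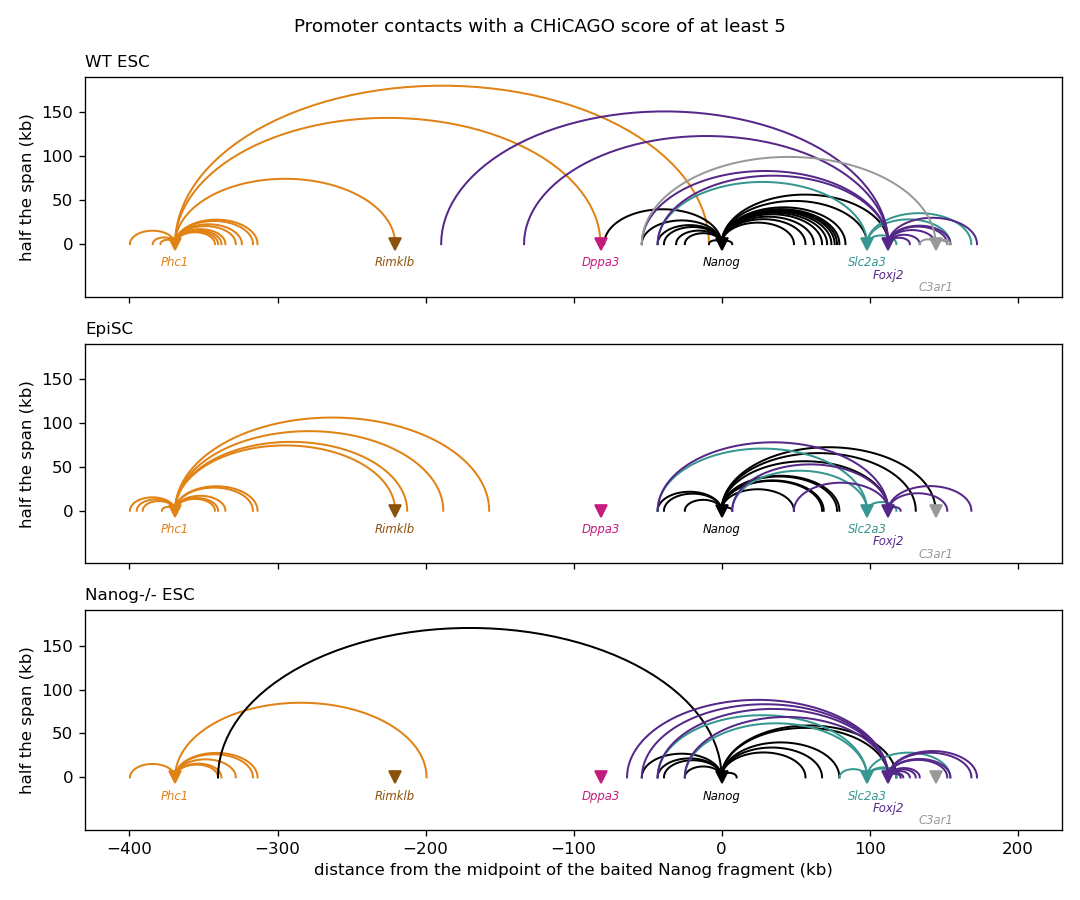
Contacts of the 7 baited fragments (triangles) as arcs over the distance from the *Nanog* bait (kb, horizontal axis), with arc height equal to the span divided by 2 (kb), colour showing the bait and 1 panel for each list; contacts over 500 kb are left out. Arcs over the gap between *Rimklb* and *Dppa3* with *Apobec1* and *Gdf3* number 4 in WT ESCs against 0 in EpiSCs and 1 in *Nanog*-/- ESCs.

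Contacts of the *Nanog* promoter lay mainly upstream of it and within *Slc2a3*. Upstream of the bait there were 7 contacts with 109 reads in WT ESCs against 3 with 55 reads in EpiSCs and 5 with 45 reads in *Nanog*-/- ESCs. Within the *Slc2a3* gene there were 11 contacts with 103 reads in WT ESCs against 5 with 70 reads in EpiSCs and 3 with 22 reads in *Nanog*-/- ESCs. Beyond *Slc2a3* there were 1, 3 and 2, and between *Nanog* and *Slc2a3* 1 in each list. The block over *Slc2a3* therefore held most of the contacts in WT ESCs. In *Nanog*-/- ESCs it held 3 against 5 upstream, and 1 of those 5 was a contact of 4 reads at 340.2 kb that WT ESCs lacked. Such small counts do not show a shift between the blocks. Over all baits, 39.6% of WT ESC contacts were kept in EpiSCs and 41.8% in *Nanog*-/- ESCs. Of the 26 *Nanog* contacts in any list, 6 were in all 3. They joined it to fragments 43.2, 38.9 and 24.8 kb upstream, to fragments 67.9 and 79.6 kb downstream in introns of *Slc2a3*, and to the *Foxj2* bait 112.7 kb downstream.

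The fragment with the 3′ end of *Nanog* (122714477 to 122716478, 7.2 kb from the bait) had the most reads of any *Nanog* contact, with 50 in WT ESCs and 64 in EpiSCs. It was not listed in *Nanog*-/- ESCs, where the next fragment (122716479 to 122720381) was listed with 21 reads and a score of 6.62. That fragment, 10.2 kb from the bait, was in neither of the other lists. Of the 20 *Nanog* contacts in WT ESCs, 9 were in neither other list. Most WT ESC contacts of any bait were likewise missing from each other list, with 39.6% kept in EpiSCs and 41.8% in *Nanog*-/- ESCs. The 9 included the SE fragment 8.5 kb upstream of the bait (30 reads, score 5.74). They also included the fragment with exons of *Dppa3* (122627458 to 122630423, 7 reads, score 5.53), 79.3 kb upstream, next to the *Dppa3* bait. No contact of any of the 7 baits landed on *Gdf3* or *Apobec1*.

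Contacts of *Nanog* with SE fragments outside its own bait numbered 4 in WT ESCs against 1 in EpiSCs and 2 in *Nanog*-/- ESCs. Those in the other states were all among the 4 of WT ESCs. Of all WT ESC contacts, 39.6% were kept in EpiSCs and 41.8% in *Nanog*-/- ESCs. Thus 1 and 2 of 4 do not set these SE contacts apart from other contacts. The SE in the *Slc2a3* intron has 2 fragments, and these stood differently in the lists. Its longer fragment (122760696 to 122769212) had 11 reads in WT ESCs, was not listed in EpiSCs and had 8 reads in *Nanog*-/- ESCs. The shorter one (122769213 to 122772061) had 11 reads in WT ESCs and was in neither other list. In EpiSCs, *Nanog* contacts within *Slc2a3* lay on either side of this SE, at 48.9 kb (13 reads) and from 67.9 kb to 79.6 kb, where a short fragment at 69.0 kb (122777190 to 122777361, 16 reads, score 10.87) was listed in EpiSCs alone.

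**Figure D4:**
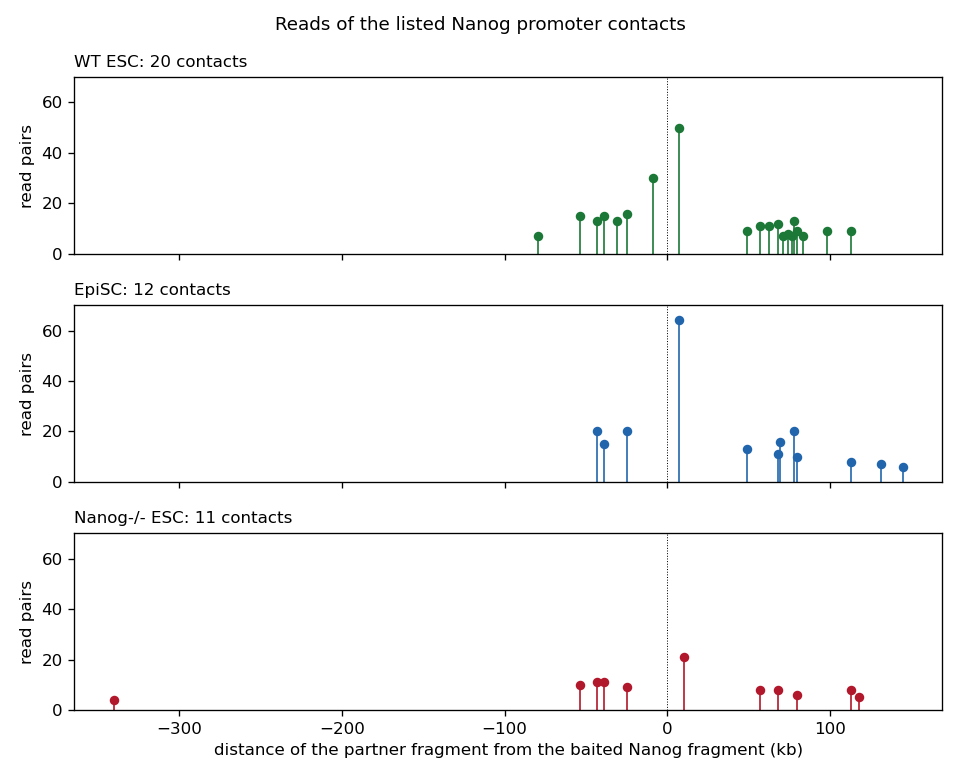
Read pairs (vertical axis) of each listed contact of the *Nanog* bait against its distance from the bait (kb), with 1 panel for each list and read numbers not scaled between lists. The highest point, at 7.2 kb, has 50 reads in WT ESCs and 64 in EpiSCs and is not listed in *Nanog*-/- ESCs, which alone have a contact at -340.2 kb (4 reads).

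Several fragments were contacted by more than 1 of the 7 promoters, and 2 without a bait are shown because both lie upstream of *Nanog*, were contacted by 3 promoters each in WT ESCs and stood differently in the other states. At least 3 baits contacted 14.4% of all such fragments listed for WT ESCs, 11.6% of those listed for EpiSCs and 12% of those listed for *Nanog*-/- ESCs. For each of the 2 shown, the central 300 bases are given in GRCm38, with capitals for the letters AAGGTCA, which ESRRB is known to bind, and for the OCT and SOX motifs, on either strand.
Fragment shared by Nanog, Slc2a3 and Foxj2, chr6:122664969-122665268, plus strand: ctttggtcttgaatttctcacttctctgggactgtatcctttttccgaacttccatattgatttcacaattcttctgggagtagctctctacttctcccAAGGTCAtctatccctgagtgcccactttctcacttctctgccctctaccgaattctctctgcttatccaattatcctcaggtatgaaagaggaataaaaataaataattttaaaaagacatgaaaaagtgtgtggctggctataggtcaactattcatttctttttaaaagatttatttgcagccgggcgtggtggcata
Fragment shared by Nanog, Foxj2 and C3ar1, chr6:122654252-122654551, plus strand: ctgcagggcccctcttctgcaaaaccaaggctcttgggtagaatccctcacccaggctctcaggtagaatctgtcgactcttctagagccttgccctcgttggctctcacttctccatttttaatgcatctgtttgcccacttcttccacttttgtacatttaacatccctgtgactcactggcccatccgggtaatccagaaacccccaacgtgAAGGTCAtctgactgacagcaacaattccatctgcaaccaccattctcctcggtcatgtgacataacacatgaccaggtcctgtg

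The first fragment (122664079 to 122666158, 2080 bp) is the end of the SE assigned to *Dppa3* and lies between *Dppa3* and *Nanog*. *Nanog* contacted it with 13 reads in WT ESCs against 20 in EpiSCs and 11 in *Nanog*-/- ESCs, *Slc2a3* with 9, 6 and 7 reads and *Foxj2* with 10, 7 and 9 reads. It was thus held by the same 3 promoters in all 3 lists, at distances of 43.2, 141.5 and 155.8 kb. Of 77034 fragments without a bait in the lists, 906 (1.18%) were contacted by the same 3 or more baits in all 3 lists. The fragment was chosen for its 3 promoters in WT ESCs, however. The closer base for the 906 is therefore the 6766 fragments without a bait that at least 3 baits contacted in WT ESCs. *Dppa3*, to which this SE was assigned by proximity in an earlier catalogue, had no listed contact with it in any state. Its central 300 bases hold AAGGTCA once and neither of the other motifs, and 5.84% of the central stretches of 3851 unbaited fragments on chromosome 6 hold these letters, 5.95% the OCT and 15.1% the SOX motif.

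The second fragment (122653048 to 122655755, 2708 bp) lies just outside that SE. *Nanog* (15 reads), *Foxj2* (10) and *C3ar1* (6) contacted it in WT ESCs, none of the 7 promoters did in EpiSCs, and *Nanog* (10) and *Foxj2* (8) did in *Nanog*-/- ESCs. The letters AAGGTCA are also found once in its central part. No unbaited fragment contacted by the 7 promoters (0 of 49) held the adjoining OCT and SOX motifs of the *Nanog* window, and 0 of 4122 unbaited fragments on chromosome 6 did.

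A further 3 fragments without a bait were contacted by 3 of the promoters in 1 of the lists. They were picked for having 3 promoters in that list, so a lower number in the other lists is partly set by this choice. Most WT ESC contacts of any bait were also missing from each other list (39.6% kept in EpiSCs, 41.8% in *Nanog*-/- ESCs). A fragment 24.8 kb upstream of the *Nanog* bait (122682483 to 122684376) was contacted by *Nanog* in every list, with 16, 20 and 9 reads, and in *Nanog*-/- ESCs also by *Slc2a3* (6 reads) and *Foxj2* (7 reads). The fragment with the 3′ end of *Nanog* was contacted by *Nanog* alone in WT ESCs and by *Nanog*, *Slc2a3* (8 reads) and *Foxj2* (9 reads) in EpiSCs. Thus *Slc2a3* and *Foxj2* both had a further contact near *Nanog* in each of the other states, but not with the same fragment. Their baits are adjacent fragments, so their contacts are not independent of each other. A fragment beyond *C3ar1* (122861351 to 122864358) was contacted by *Slc2a3* (14 reads), *Foxj2* (22) and *C3ar1* (32) in WT ESCs, by none in EpiSCs, and by *Slc2a3* (10) and *Foxj2* (15) in *Nanog*-/- ESCs.

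**Figure D5:**
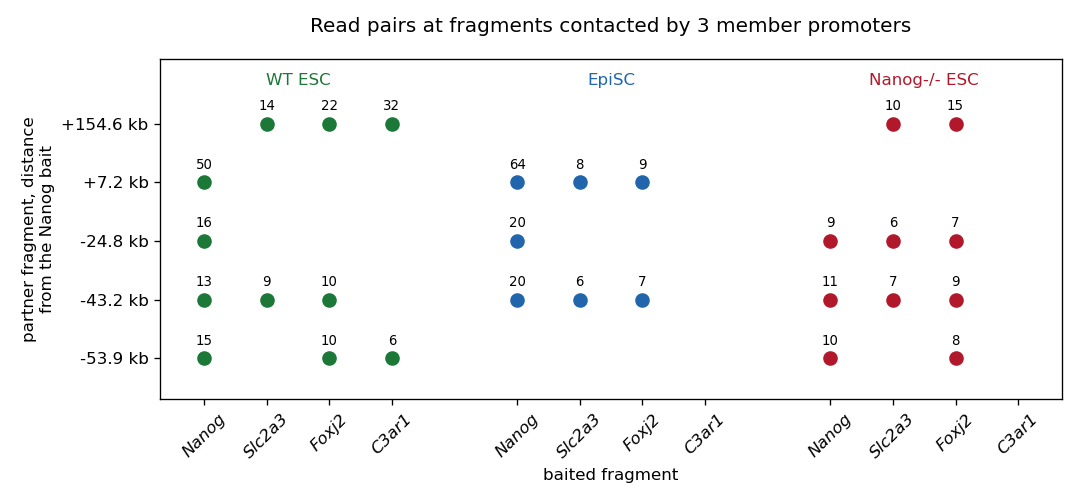
Read pairs (numbers above the points) between 4 baited promoters (horizontal axis) and the fragments without a bait that 3 of the 7 promoters contacted (vertical axis, distance from the *Nanog* bait in kb), with colours for the 3 lists and no point where a contact was not listed. The fragment 43.2 kb upstream has points for *Nanog*, *Slc2a3* and *Foxj2* in every list, and *C3ar1* has points in WT ESCs alone.

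Contacts that joined 2 of the 7 promoters to each other numbered 5 in WT ESCs against 3 in EpiSCs and 1 in *Nanog*-/- ESCs, and 6 in any list. *Nanog* and *Foxj2* were joined in all 3 lists, with 9 reads (score 7.98) in WT ESCs against 8 (5.11) in EpiSCs and 8 (9.68) in *Nanog*-/- ESCs. *Nanog* and *Slc2a3* were joined in WT ESCs alone (9 reads, score 7.29), and *Nanog* and *C3ar1* in EpiSCs alone (6 reads, score 8.01). Hence *Nanog* was in contact with a promoter beyond *Slc2a3* in each state, and the promoter that was always among them was *Foxj2*, whose expression was not called in either contrast. *Foxj2* and *C3ar1* were joined in WT ESCs alone, with 23 reads and a score of 11.47. *Phc1* was joined to *Dppa3* in WT ESCs alone (5 reads, score 7.16) and to *Rimklb* in WT ESCs (8 reads) and EpiSCs (5 reads). Among all WT ESC contacts that joined 2 baits, 43.3% were kept in EpiSCs and 46.8% in *Nanog*-/- ESCs.

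*Phc1* lies 369.2 kb from *Nanog*, at the upstream end of the interval, and 4 of its 21 contacts in any list were in all 3. They were with the promoters of *M6pr* (a receptor for lysosomal enzymes; 42, 43 and 21 reads) and *1700063H04Rik* (35, 23 and 30 reads) and with 2 intergenic fragments at 29.0 and 55.7 kb. Among 6 contacts that EpiSCs had and WT ESCs lacked were those with a fragment at 156.8 kb (9 reads) and with an exon of *Mfap5* at 181.2 kb (11 reads). In *Nanog*-/- ESCs the 1 contact not in WT ESCs joined it to the promoter of *Mfap5*, which encodes a microfibril protein (7 reads, score 9.81). *Mfap5* had 1.62, 1.68 and 1.19 RPKM and was not called in either contrast.

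Contacts that spanned *Apobec1* and *Gdf3* numbered 5 in WT ESCs against 0 in EpiSCs and 1 in *Nanog*-/- ESCs. In WT ESCs, *Phc1* was in contact with the *Dppa3* bait at 287.4 kb and with an SE fragment upstream of *Nanog* at 360.7 kb (6 reads, score 5.31), and *Foxj2* with fragments 302.1 kb (6 reads) and 246.1 kb (7 reads) away. None of these was in another list. At distances from the shortest to the longest of these 4, 32.4% of all WT ESC contacts were also in the EpiSC list and 23.8% in the *Nanog*-/- ESC list, so that most such contacts of any bait were not kept. In *Nanog*-/- ESCs, *Nanog* was joined to a fragment 340.2 kb upstream (122367547 to 122368578, 4 reads, score 6.72), which *Phc1* contacted in all 3 lists with 29, 42 and 20 reads. Over still larger distances, 5 contacts above 500 kb were listed in WT ESCs against 0 in EpiSCs and 1 in *Nanog*-/- ESCs. *Foxj2* reached *Pex5*, a receptor for peroxisomal proteins, at 1583 kb (4 reads) and 1595 kb (4 reads) and an intron of *Clstn3* at 1621 kb (5 reads). *C3ar1* reached the *Clstn3* promoter at 1611 kb (3 reads) and that of *Gm15856* 1625 kb on the other side (3 reads). The contact at 1595 kb was the 1 kept in *Nanog*-/- ESCs, with 4 reads. Of all WT ESC contacts within a chromosome and over 500 kb, 24.6% were in the EpiSC list and 13.6% in the *Nanog*-/- ESC list, so 0 and 1 of 5 are near what other baits showed. With 3 to 5 reads each, these contacts rest on little data.

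Reads of contacts held by 2 lists were compared relative to the median ratio over all contacts held by both, since lists of called contacts do not tell library depth. The 20 contacts shared with EpiSCs had 416 reads in WT ESCs and 471 in EpiSCs, a relative log2 ratio of 0.44 (95% interval 0.25 to 0.64, exact binomial, counting error only). This ratio of summed reads gives most weight to contacts with many reads, and the median ratio of the 20 contacts was 0.32. Contacts of 1 bait are not independent, and the spread of this ratio over other baits is not given here. Of these 20, 15 were above 0 and 2 were at least 1, where 2.33% of all shared contacts were. Both were contacts of *Phc1*, with 19 reads in WT ESCs and 37 in EpiSCs at 55.7 kb (1.23, interval 0.39 to 2.11) and 24 and 42 reads at 34.0 kb (1.07, interval 0.31 to 1.86). None was at or below -1, where 1.1% of all were. The contacts of *Nanog* kept in EpiSCs had ratios between 0.09, for *Foxj2*, and 0.88, and the 1 interval that left out 0 was that of the 7.2 kb contact (0.62, interval 0.06 to 1.18).

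The 25 contacts shared with *Nanog*-/- ESCs had 513 and 359 reads, a relative log2 ratio of 0.17 (-0.03 to 0.37), whose interval includes 0. The median ratio of the 25 contacts was 0.20. Here 19 of 25 were above 0, and the 1 of at least 1, where 0.498% of all shared contacts were, was again that of *Phc1* at 55.7 kb (19 and 25 reads, 1.08, interval 0.17 to 2.03). None was at or below -1 (0.298% of all). The 8 contacts that *Nanog* kept in *Nanog*-/- ESCs had ratios between -0.14, at 24.8 kb, and 0.52, for *Foxj2*. All 8 intervals included 0, so that with 6 to 16 reads a contact, no difference in reads was detectable at this depth.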

How the data were processed

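PCHi-C lanes (5 WT ESC, 2 EpiSC, 5 *Nanog*-/- ESC) and RNA-seq samples (3, 4 and 3) were used as the authors deposited them, and the ChIP-seq samples were not used here. For PCHi-C, the authors mapped reads with HiCUP, scored pairs of HindIII fragments with CHiCAGO and combined 2 biological replicates, and deposited the read counts and the score of each pair in 1 list per cell type (GRCm38). The lowest listed score is 5. The RNA-seq table holds 1 RPKM per gene and group, the median that the authors took after scaling by gene length and library size. The submitters' processing notes name TopHat, Bowtie 1.1.0, Trim Galore and DESeq2 without saying which step used them. The RNA-seq group headed BT12 was read as *Nanog*-/- ESCs from the labels' design text and line name. Columns with the authors' fold changes and significance for both contrasts were not used.

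Genes were matched by the names in the lists and table. Where an interaction appeared from each of its ends, it entered once, with its higher reads and score. All 5149 listed fragments of chromosome 6 start on a HindIII site of the reference. Distances are between fragment midpoints, and gene spans are from the reference annotation. SE fragments are the coordinates in the study's list of 231 ESC SEs. The genes named are the 9 chosen, their contact partners, the listed neighbours and factors, and the 5 genes nearest to *Nanog* in expression. These genes and lists were chosen with earlier results of these data known. Depth is known only as the reads in called contacts (2177383, 1651422 and 1440356), which is not library depth. The samples within a group are not separate in the files, so no spread between replicates could be computed. Scripts were tested on simulated data. Python 3.11.15, numpy 2.4.6, pandas 2.3.3, scipy 1.17.1 and matplotlib 3.10.9 were used. Alternatives were other pseudocounts, centring, filters on RPKM, score, reads and distance, neighbouring fragments and other read scales.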

Additional observations from a re-analysis of the deposited data

How the results depend on the processing

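No paired analysis was possible because the deposited table holds group medians and each list combines its replicates, and leaving out a replicate could not be done for the same reason. Of 30 alternative values for the comparisons, 23 stayed the same and 7 moved. Counts that moved changed by more than 1.5 times. Kept shares that moved lay outside the intervals given above, and those that stayed lay inside them. The read ratios kept their sign. At a score of at least 7 the contacts numbered 24 for WT ESCs, 15 for EpiSCs and 18 for *Nanog*-/- ESCs. The share of WT ESC contacts kept in EpiSCs was 58.3% at a WT ESC score of at least 7 (57.8% of all contacts) and 54.4% when the next fragment also counted (53.6% of all). For *Nanog*-/- ESCs it was 59.6% with the next fragment (54.7% of all) and 58.3% for contacts of at least 10 reads (54.8% of all). In the other direction were EpiSCs at 10 reads or more (41.7%, 47.9% of all) and *Nanog*-/- ESCs at a WT ESC score of at least 7 (54.2%, 60.4% of all). *Dppa3* was called with the sign of *Nanog* under every alternative run, whereas *Nanog* itself was not called in EpiSCs without centring (-0.21) or at a log2 difference of at least 2. Of 41 values for single genes 6 moved and 0 passed the threshold in the opposite direction. Differences under the threshold could change sign, as those of *Slc2a3* (0.45) and *Phc1* (0.03) in EpiSCs did without centring. With a pseudocount of 0.1, *Dppa3* had -9.80 in EpiSCs and *C3ar1* 2.16 in EpiSCs and 1.73 in *Nanog*-/- ESCs, which passed the threshold. Counts of gene lists without centring and shares at matched distance were added after the data were seen. Low read numbers limit the single contacts.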
